A study of Homo sapiens with 45 samples.

Results

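Keratins are the intermediate filament proteins of epithelial cells, and 10 of their genes were followed here in HCT116 cells, an established line from a human colon cancer. KRT80 was chosen by its RNA counts, which were higher after HNRNPK siRNA than in siNTC5 controls, and KRT8, KRT18, KRT19, KRT20, KRT23, KRT7, KRT81, KRT86 and KRT15 were set beside it. The deposited gene table of 8 libraries lists 55 keratins among 28278 gene names. All 10 keratins were named in it, and 8 of them had a count above 0. HNRNPK encodes a nuclear protein that binds nucleic acids rich in cytosine. All cells were plated onto 25 nM of siRNA and collected after 72 hours. The RNA groups were a nontargeting siRNA called siNTC5 (replicates 1 to 4), HNRNPK siRNA (siHNRNPK, replicates 1 to 4), and a nontargeting set named Scramble in its files (replicates 5 and 6). Chromatin immunoprecipitation (ChIP) of lamin B1, which lines the inner face of the nuclear envelope, and of the histone marks H3K9me2, H3K9me3 and H3K27me3 was deposited as 1 list of domains per antibody and siRNA. H3K9me2 was listed in control cells alone.

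Keratin filaments are built from pairs of an acidic type I chain and a basic type II chain. KRT8, KRT7, KRT80, KRT81 and KRT86 are type II genes and lie on chromosome 12. KRT19, KRT20, KRT23 and KRT15 are type I genes on chromosome 17, and KRT18, a type I gene, lies beside its partner KRT8 at the end of the chromosome 12 cluster. KRT8, KRT18, KRT19 and KRT20 are known as the keratins of the simple epithelium of the gut. KRT7 is better known from ducts, KRT15 from the basal layer of stratified epithelium, and KRT81 and KRT86 from hair.

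Among the 10 keratins, the RefSeq promoter table (GRCh38.p14) held an entry for 2, KRT8 and KRT20. They are shown with KRT10, an epidermal type I keratin, because KRT20 and KRT10 lie within 1 H3K9me3 domain of control cells while KRT8 lies outside every domain. Each sequence gives the 250 bases before the table's gene start, on the minus strand, 5′ to 3′. The window of KRT8 is chr12:52926470-52926719 and lies inside the gene's RefSeq span, that of KRT20 is chr17:40885243-40885492, and that of KRT10 is chr17:40822615-40822864. Capitals mark a match on either strand to 1 of the 4 motifs searched. These were CCCTCCC, the core of a pyrimidine-rich element that HNRNPK is known to bind. Also searched were TATAAA, found upstream of many regulated starts, then GGGCGG, bound by SP1, and finally TGANTCA, bound by the AP-1 family.
KRT8: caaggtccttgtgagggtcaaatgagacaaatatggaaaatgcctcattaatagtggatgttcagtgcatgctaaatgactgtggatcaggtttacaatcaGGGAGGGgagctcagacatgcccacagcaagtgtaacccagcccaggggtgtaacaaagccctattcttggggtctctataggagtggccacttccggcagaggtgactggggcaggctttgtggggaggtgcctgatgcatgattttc
KRT20: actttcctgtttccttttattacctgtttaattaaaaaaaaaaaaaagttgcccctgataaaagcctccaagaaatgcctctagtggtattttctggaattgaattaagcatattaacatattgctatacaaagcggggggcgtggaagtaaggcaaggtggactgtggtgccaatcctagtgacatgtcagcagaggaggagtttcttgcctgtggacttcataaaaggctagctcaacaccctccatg
KRT10: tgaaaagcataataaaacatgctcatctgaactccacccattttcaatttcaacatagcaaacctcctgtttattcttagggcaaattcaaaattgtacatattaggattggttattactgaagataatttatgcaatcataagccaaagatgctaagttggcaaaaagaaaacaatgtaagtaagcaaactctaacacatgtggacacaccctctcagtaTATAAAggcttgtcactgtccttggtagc
KRT8 had 1 match to CCCTCCC, on the opposite strand, a motif found in 24.7% of 35116 promoter windows of the same length. KRT10 had 1 match to TATAAA, found in 10.7% of windows. KRT20 had none of the 4 motifs. The SP1 motif, found in 42.6% of windows, and the AP-1 motif, found in 6.60%, were in none of the 3 shown. A match is a description of the letters and not a measured binding site.

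Library totals ran from 12107280 to 23633851 counts in the 8 libraries and were 59209169 and 55007171 in Scramble. In each siNTC5 and siHNRNPK group, replicates 1 and 2 were made with a TruSeq kit and replicates 3 and 4 with a Ligation kit. Scramble used the TruSeq kit with another RNA purification, and its counts came in separate tables. Nothing in the labels says that replicates came from separate cultures, so p-values measure the spread between these libraries, which may be technical. HNRNPK itself, the siRNA target, was between 819.3 and 968.0 CPM in siNTC5 and between 156 and 249.9 CPM in siHNRNPK, and the groups did not overlap. CPM is the usual count per library scaled to a common total, here with factors from the trimmed mean of M values (TMM) over all 10 libraries. Cell type markers and their sums were scaled over the 8 libraries alone. The filter on low counts and the 1 CPM level for names listed at 0 used library totals without these factors. Of 16 colon epithelium markers, 7 had a mean of at least 1 CPM. EPCAM and CDH1, general epithelial adhesion genes, averaged 248.6 and 99.1 CPM in siNTC5. FABP1 and PHGR1 were listed at 0, and VIL1 averaged 0.167 CPM.

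KRT80, a type II keratin known from many epithelia, had the highest fold difference of the 8 detected keratins. In siNTC5 it was at 3.13, 3.18, 1.61 and 1.54 CPM, or 24 to 76 counts per library. In siHNRNPK it was at 53.2, 53.7, 53.0 and 58.7 CPM, or 631 to 809 counts. All 4 knockdown libraries lay far above all 4 controls, and within siNTC5 the 2 TruSeq libraries lay above the 2 Ligation libraries. The log2 fold change was 4.50 ± 0.14 (SE, n = 4 and 4), fitted with library kit as a term. The ratio of means was 16.9 in TruSeq libraries and 35.4 in Ligation libraries. The Scramble libraries, which lay near siNTC5, had 4.08 and 2.69 CPM. Against Scramble, the log2 fold change of siHNRNPK was 4.06 ± 0.18. These values chose the gene and are given with no test. In bulk RNA, more cells with a transcript and more transcript per cell cannot be told apart.

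**Figure D1:**
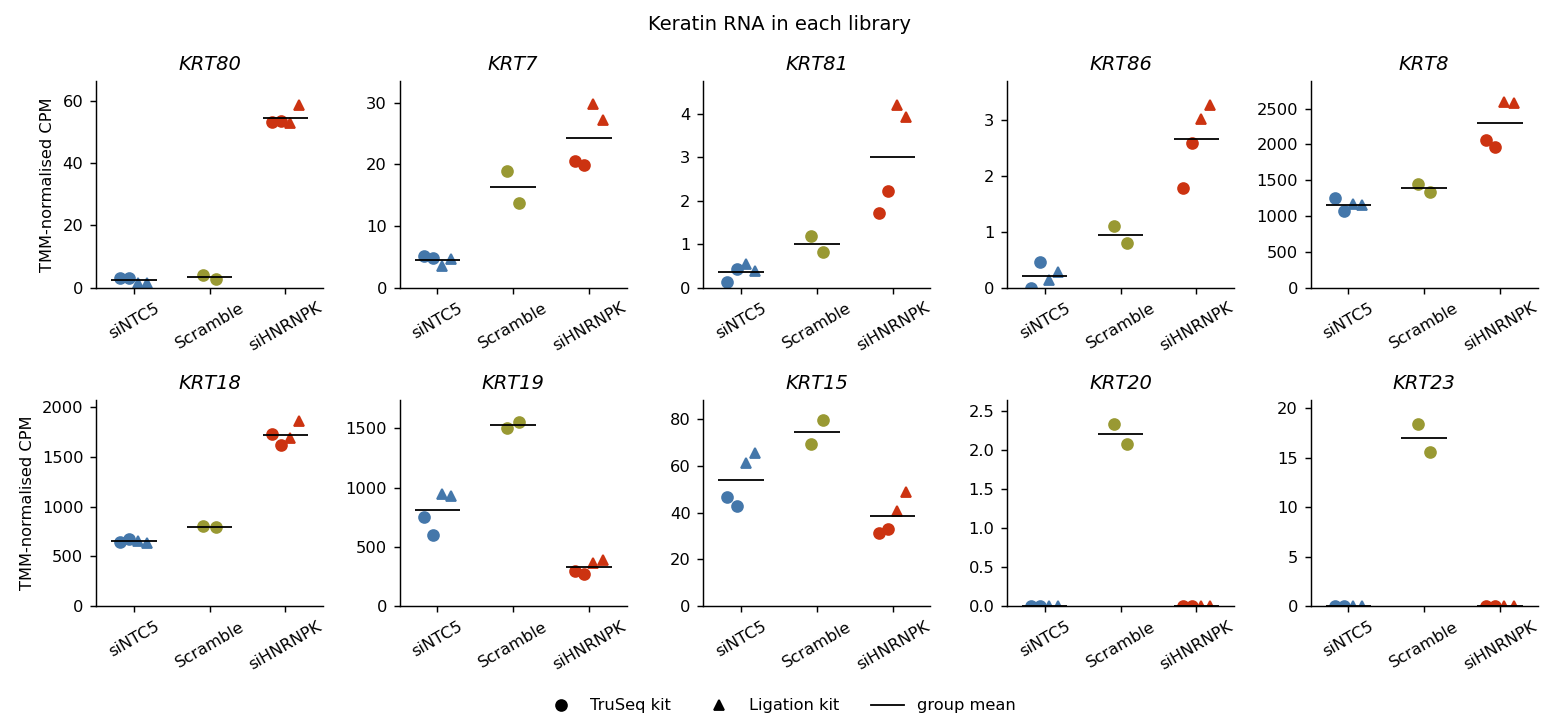
TMM-normalised CPM (y axis, linear from 0) of the 10 keratins in each library, grouped as siNTC5, Scramble and siHNRNPK, with TruSeq libraries as circles, Ligation libraries as triangles and the group mean as a line. KRT80 stands at 53.0 to 58.7 CPM in siHNRNPK and at most 4.08 CPM elsewhere, KRT19 and KRT15 are lowest on average in siHNRNPK among their detected groups, and KRT20 and KRT23 are listed at 0 outside Scramble.

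Against siNTC5, 8 of the 10 keratins passed the filter on low counts. KRT81 and KRT86 passed it through siHNRNPK alone, since no siNTC5 library reached its level of 0.665 CPM, so they could only differ and are given as values with no test. KRT80 is likewise untested, as the gene chosen for its rise. The other 5, KRT8, KRT18, KRT19, KRT7 and KRT15, reached that level in both groups and all 5 passed the threshold, 3 higher and 2 lower. Over all 13933 genes tested, 71.5% passed (edgeR quasi-likelihood test, Benjamini-Hochberg adjusted p under 0.05), 35.5% as higher and 36.1% as lower, so a call by itself sets a keratin little apart from other genes. By 1 or more on the log2 scale, 3 of these 5 differed and passed, beside 2195 of all tested genes, or 15.8%.

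The pair of the simple epithelium, KRT8 and KRT18, rose together. KRT8 was at 1252, 1069, 1169 and 1156 CPM in siNTC5 and at 2060, 1967, 2596 and 2584 CPM in siHNRNPK. The groups did not overlap, and in siHNRNPK both Ligation libraries were above both TruSeq libraries. Its log2 fold change was 0.98 ± 0.06 (adjusted p = 1.60e-10, edgeR). KRT18 was at 645, 675, 655 and 635 CPM in siNTC5 and at 1730, 1616, 1688 and 1860 CPM in siHNRNPK. The 4 controls spanned a narrow range and all 4 knockdown libraries lay above it. Its log2 fold change was 1.41 ± 0.05 (adjusted p = 1.66e-14, edgeR). The genes of this pair overlap at their ends, and RefSeq names 52 pseudogenes of KRT8 and 68 of KRT18, of which 1 each is in the table, with at most 1 and 9 counts. How reads shared with such copies were counted is not given in the sources used here.

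KRT19, the smallest acidic keratin and also a gene of simple epithelium, fell. It was at 756, 601, 946 and 929 CPM in siNTC5 and at 297, 273, 363 and 393 CPM in siHNRNPK. All 4 knockdown libraries lay below all 4 controls, and the Ligation libraries were the higher ones in both groups. The log2 fold change was -1.27 ± 0.06 (adjusted p = 1.36e-12, edgeR). KRT15, its neighbour on chromosome 17, was at 46.6, 43.0, 61.3 and 65.6 CPM in siNTC5 and at 31.2, 33.2, 40.9 and 49.0 CPM in siHNRNPK. The groups overlapped across kits, and within each kit both knockdown libraries were below both controls. With kit as a term its log2 fold change was -0.48 ± 0.07 (adjusted p = 3.54e-06, edgeR).

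The acidic chains of simple epithelium therefore moved in opposite directions, and their ratio within a library separated the groups. The ratio of KRT18 to KRT19 counts was 0.854, 1.12, 0.693 and 0.684 in siNTC5 and 5.82, 5.92, 4.65 and 4.74 in siHNRNPK, and 0.534 and 0.510 in Scramble. The ratio of KRT8 to KRT18 counts was 1.94, 1.58, 1.78 and 1.82 in siNTC5, 1.19, 1.22, 1.54 and 1.39 in siHNRNPK, and 1.79 and 1.68 in Scramble. Every knockdown library was below every control library in this second ratio, since KRT18 rose by more than KRT8. Both ratios compare libraries and not the amounts of the 2 transcripts, because counts grow with transcript length. They were given no test.

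**Figure D2:**
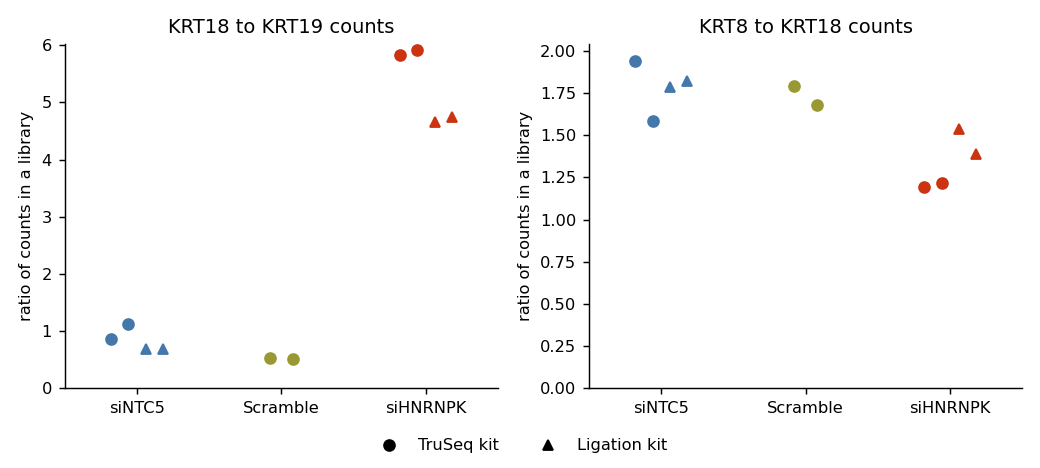
Ratio of counts of KRT18 to KRT19 (left) and of KRT8 to KRT18 (right) within each library (y axes, linear from 0), for siNTC5, Scramble and siHNRNPK, with TruSeq libraries as circles and Ligation libraries as triangles. The KRT18 to KRT19 ratio is 4.65 to 5.92 in siHNRNPK and at most 1.12 in the control sets.

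KRT7, KRT86 and KRT81 follow KRT80 along chromosome 12. KRT7 was at 5.08, 4.76, 3.48 and 4.63 CPM in siNTC5 and at 20.5, 19.9, 29.7 and 27.2 CPM in siHNRNPK. The groups did not overlap, and its log2 fold change was 2.41 ± 0.13 (adjusted p = 1.69e-11, edgeR). The antisense gene KRT7-AS lies within KRT7 and gave 2.41 ± 0.45, or 3.35 without siNTC5 replicate 2. It too reached the filter's level in siHNRNPK alone and is given with no test. The strand setting of the counting is not given in the sources used here, so reads of KRT7 and KRT7-AS cannot be told apart.

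The hair keratins stood on few counts. KRT81 had 2, 10, 8 and 7 counts in siNTC5 and 26, 30, 50 and 48 in siHNRNPK, and its log2 fold change was 2.97 ± 0.30. KRT86 had 0, 11, 2 and 5 counts in siNTC5 and 27, 35, 36 and 40 in siHNRNPK, and its log2 fold change was 3.40 ± 0.41. Neither gene's groups overlapped, which follows from their passing the filter through siHNRNPK alone. Without siNTC5 replicate 2, which held the most counts of both, the value for KRT86 was 4.29. With Scramble added to the controls it was 2.53, that of KRT81 was 2.19 and that of KRT7 was 1.74 (for KRT7, adjusted p = 0.0202, edgeR). The span of KRT81 lies inside that of KRT86 and the proteins are close relatives, so the split of reads between them is uncertain.

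KRT20, a marker of differentiated gut epithelium, and KRT23, a type I keratin, could not be compared between siNTC5 and siHNRNPK. Both are listed at 0 in all 8 libraries. In Scramble, KRT20 had 117 and 96 counts (2.34 and 2.08 CPM) and KRT23 had 919 and 716 counts (18.4 and 15.5 CPM). The table of 8 libraries lists 215 names at 0 throughout that averaged at least 1 CPM in Scramble, 1.74% of the 12380 names at that level. These include SLC25A6 and TAF15, genes used by most cells, so a 0 here may be a name that was not counted. No fold is given for KRT20 or KRT23.

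The size of the difference was also compared between kits. In the test of the treatment by kit term, 18 of 13933 genes passed, or 0.129%, and 0 of the 5 keratins tested above did (edgeR quasi-likelihood test). At an unadjusted p under 0.05 there were 1639 genes, and 2 of these 5 keratins were among them, KRT8 and KRT7. The term was 0.38 ± 0.09 for KRT8 (adjusted p = 0.101, edgeR) and 0.77 ± 0.21 for KRT7 (adjusted p = 0.153, edgeR), with larger differences in the Ligation libraries. The Wald test of DESeq2 called 71 genes, 1 of them KRT8 (adjusted p = 0.00971). Without siNTC5 replicate 1 the edgeR test called 364 genes and without siNTC5 replicate 2 it called 598, each time with KRT8 among them.

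The Scramble libraries gave a view of how far keratins differ between control sets. Over the 14642 genes tested on shared names, 69.3% passed between Scramble and siNTC5, so these sets differ widely. Purification differed between the sets and the tables were made separately, so control siRNA, purification and counting cannot be told apart. KRT20 and KRT23 entered this fit through Scramble alone, and their listed zeros are not counted as calls. Of the 5 keratins tested above, all 5 passed and were higher in Scramble. KRT7 was at 19.0 and 13.7 CPM in Scramble, above every siNTC5 library and below every siHNRNPK library, and its log2 difference from siNTC5 was 1.97 ± 0.17 (adjusted p = 1.03e-08, edgeR). KRT81 and KRT86, below the filter's level in siNTC5 and given with no test, differed by 1.95 ± 0.39 and 2.14 ± 0.52, and without siNTC5 replicate 2 KRT86 differed by 3.19. KRT19 was at 1508 and 1551 CPM, above every library of the other groups, with a difference of 1.16 ± 0.07 (adjusted p = 9.49e-11, edgeR).

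KRT15 was higher in Scramble by 0.73 ± 0.08, KRT8 by 0.34 ± 0.08 and KRT18 by 0.30 ± 0.06 on the log2 scale (adjusted p = 3.52e-07, 0.00109 and 0.000103, edgeR). Without the kit term KRT8 was higher by 0.25 and did not pass (adjusted p = 0.0655, edgeR). KRT80 differed by 0.44 ± 0.23, given with no test because its siNTC5 values took part in its choice, and was between 0.10 (without Scramble replicate 5) and 0.70 (without Scramble replicate 6) over 14 alternatives. By TMM, 5495 genes were higher and 4651 lower in Scramble, and by upper-quartile scaling 4380 and 5770. The median of all genes was 0.04 by the first and -0.10 by the second, and the direction of each keratin named above was the same by both.

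Against Scramble, 81.2% of the 14642 genes passed, and so did 7 keratins with counts in both groups, 5 higher and 2 lower in siHNRNPK. KRT80, chosen for its rise, and KRT20 and KRT23, with their listed zeros, are left out of that count. This contrast shares the knockdown libraries with the one above, so values stand side by side and are not further evidence. KRT8 was higher by 0.63 ± 0.08 and KRT18 by 1.10 ± 0.06 (adjusted p = 1.81e-06 and 4.87e-12, edgeR). KRT19 was lower, at -2.44 ± 0.07, and KRT15 at -1.22 ± 0.09 (adjusted p = 1.54e-15 and 2.54e-10, edgeR). Both of these lay further from Scramble than from siNTC5. The reverse held for the neighbours of KRT80. KRT7 differed from Scramble by 0.43 ± 0.16, KRT81 by 1.01 ± 0.33 and KRT86 by 1.26 ± 0.41 (adjusted p = 0.0185, 0.00879 and 0.00832, edgeR).

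Those 3 values depended on the control library kept. Without Scramble replicate 6, the lower of the 2 for each gene, KRT7 was at 0.20, KRT81 at 0.77 and KRT86 at 1.04. Each was smaller than with both Scramble libraries, and without Scramble replicate 5 each was larger. Such a fit leaves 1 Scramble library, so sizes alone are given and the 3 calls are not shown to hold in it. KRT7 missed the threshold in TruSeq libraries alone (0.31, adjusted p = 0.0727, edgeR). KRT86 missed it without siHNRNPK replicate 2 (1.10, adjusted p = 0.0544, edgeR). KRT80, given as a description, was between 3.78 and 4.39 across the 14 alternatives.

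**Figure D3:**
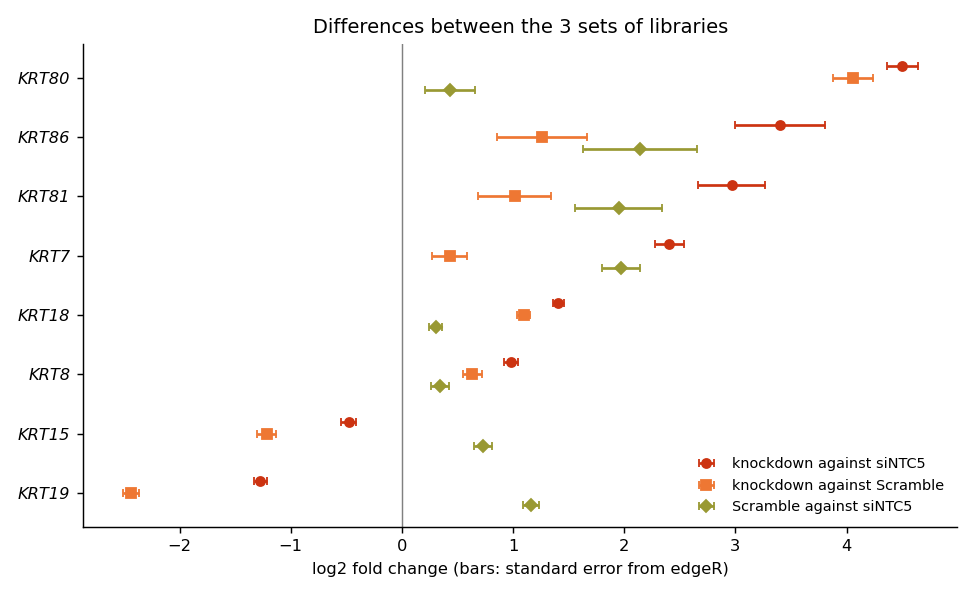
Log2 fold changes (x axis) with their standard errors from edgeR for the 8 detected keratins in 3 contrasts, siHNRNPK against siNTC5 (circles), siHNRNPK against Scramble (squares) and Scramble against siNTC5 (diamonds). The contrasts share libraries. KRT80 is above 4 against both control sets, whereas KRT7 is at 2.41 against siNTC5 and 0.43 against Scramble.

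Other keratins were mostly silent in these cells. Of the remaining 45 keratins in the table, 4 passed the filter on low counts, and among the other 41 no library had more than 15 counts. KRT10 was at 15.5, 16.2, 15.7 and 13.6 CPM in siNTC5 and at 23.4, 22.0, 25.4 and 25.5 CPM in siHNRNPK. Its log2 fold change was 0.66 ± 0.09 (adjusted p = 1.70e-06, edgeR). Scramble was higher still, at 27.8 and 29.8 CPM, and with Scramble added to the controls the difference was 0.37 and did not pass (adjusted p = 0.234, edgeR). KRT13, a keratin of stratified mucosa, was higher by 0.76 ± 0.23 (adjusted p = 0.00550, edgeR). It did not pass with Scramble among the controls (0.43, adjusted p = 0.278) or in TruSeq libraries alone (0.47, 0.277). KRT32 and KRT222 were at -0.23 and -0.11 and did not pass (adjusted p = 0.431 and 0.427, edgeR).

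RefSeq places 31 genes within 250 kb of KRT80, and 8 of them were tested. The 4 on the keratin side, KRT7, KRT7-AS, KRT86 and KRT81, at 41.2 to 93.9 kb, had the values given above. On the other side, ATG101, an autophagy gene 91.5 kb away, was higher by 0.24 ± 0.07 (adjusted p = 0.00470, edgeR). It did not pass in TruSeq libraries alone (0.09, adjusted p = 0.387) or with Scramble among the controls (0.16, 0.227). NR4A1, a nuclear receptor gene, was at 0.40 ± 0.18 and did not pass (adjusted p = 0.0594, edgeR). It passed in 8 of 20 alternatives with a positive value, 0.36 to 1.17, and in 1 with a negative value. By kit it was at -0.28 in TruSeq and 1.17 in Ligation libraries (adjusted p = 0.0158 and 5.55e-18, edgeR). The activin-type receptor genes ACVR1B and ACVRL1 were at -0.13 and -0.26 and did not pass (adjusted p = 0.0545 and 0.406, edgeR). ACVR1B passed in 5 alternatives, at -0.16 to -0.22.

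Among 9998 genes with an average log2 CPM of at least 3, those whose log2 CPM tracked KRT80 most closely over the 8 libraries were ENG, CXCL8, TXNRD1, SMU1 and CDK6, with Pearson r of 0.998 to 0.999. The libraries form a knockdown and a control group, so r mostly restates that split, and 1090 genes had r above 0.95. CXCL8, a chemokine, was closest in size. It was at 2.07, 1.96, 1.14 and 1.16 CPM in siNTC5, at 30.2, 37.6, 31.6 and 33.1 CPM in siHNRNPK, and at 2.42 and 1.95 CPM in Scramble. As for KRT80, its TruSeq controls lay above its Ligation controls. ENG, a co-receptor for TGF-beta ligands, was at 3.75 to 5.10 CPM in siNTC5, 12.5 to 13.4 CPM in siHNRNPK and 0.82 and 1.24 CPM in Scramble.

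Genes that anchor keratin filaments were looked at next. Of 10 desmosome genes tested, 4 were higher and 5 lower, with a median log2 fold change of -0.12. The 4 higher include DSG1, which passed the filter through siHNRNPK alone. With a mean of at least 50 counts required, 9 were tested, 3 higher and 5 lower, with a median of -0.19. Over all tested genes 35.5% were higher and 36.1% lower, with a median of -0.0042. DSG1, a desmosomal cadherin of stratified epithelium, was at 0.06 to 0.17 CPM in siNTC5, 1.05 to 1.76 CPM in siHNRNPK and 0.12 and 0.09 CPM in Scramble. Its log2 fold change was 3.43 ± 0.40, given with no test because DSG1 reached the filter's level in siHNRNPK alone. Of 14 plakins and linkers, 2 were higher and 8 lower, with a median of -0.46. ITGB4, the hemidesmosomal integrin chain that plectin binds, was at 437, 289, 596.5 and 614 CPM in siNTC5 and at 75.6, 68.2, 112 and 113 CPM in siHNRNPK. It fell by 2.37 ± 0.09 on the log2 scale (adjusted p = 8.50e-14, edgeR), and by 2.97 with Scramble, at 1181 and 1141 CPM, among the controls. PPL, which encodes periplakin, fell by 1.43 ± 0.08 and FBF1, whose protein binds keratin, fell by 1.16 ± 0.11 (adjusted p = 1.88e-11 and 2.94e-08, edgeR). FBF1 in Scramble, at 5.27 CPM in both libraries, lay at the level of siHNRNPK (4.74 to 5.65 CPM).

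Of 8 tested genes for other intermediate filaments and their partners, 1 was higher and 7 lower, with a median of -0.90, beside 35.5% higher and 36.1% lower over all genes. With a mean of at least 50 counts required, 5 were tested, 1 higher and 4 lower, with a median of -0.68. Over all 11442 genes of that fit, 4330 were higher and 4359 lower. VIM, NES and SYNM, the genes of vimentin, nestin and synemin, fell by 1.67 ± 0.23, 1.15 ± 0.09 and 1.10 ± 0.13 (adjusted p = 2.97e-06, 1.21e-09 and 4.75e-07, edgeR). SYNM in Scramble, at 12.1 and 10.6 CPM, lay below every siNTC5 library (13.8 to 23.8 CPM) and above every siHNRNPK library (7.47 to 9.74 CPM). NES in Scramble, at 45.2 and 42.3 CPM, lay within the siNTC5 range (34.8 to 48.9 CPM). SYNC, the gene of syncoilin and among the 7 lower, differed by -1.73 ± 0.33. SYNC is given with no test, because 1 siHNRNPK library reached the filter's level beside 4 in siNTC5. VIM, the filament of mesenchymal cells, was low in all groups, at 2.30 to 3.47 CPM in siNTC5, 0.74 to 1.15 CPM in siHNRNPK and 3.16 and 4.36 CPM in Scramble. Of 27 genes of squamous differentiation, 10 were tested, 3 higher and 2 lower, or 1 and 2 with Scramble among the controls. That last fit called fewer genes in all, 3337 higher and 3628 lower of 13460, beside 4941 and 5027 of 13933 against siNTC5 alone. CSTA, the gene of the cornified-envelope protein cystatin A, rose by 2.98 ± 0.14 (adjusted p = 1.52e-12, edgeR), from 1.63 to 2.04 CPM up to 12.8 to 16.6 CPM. Scramble was at 15.8 and 13.6 CPM, within the siHNRNPK range, and with Scramble among the controls the difference was 1.67 and did not pass (adjusted p = 0.0832, edgeR). Of 20 epithelial transcription factor genes tested, 8 were higher and 7 lower, close to the 35.5% and 36.1% over all genes, with a median of 0.03. With Scramble among the controls, 5 were higher and 5 lower, with a median of -0.29. Over all 13460 genes of that fit, 3337 were higher and 3628 lower, with a median of -0.02. FOXA1, a pioneer factor of gut and other endoderm, rose by 1.25 ± 0.24 (adjusted p = 0.000148, edgeR), from 1.00 to 1.61 CPM up to 2.23 to 3.75 CPM.

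**Figure D4:**
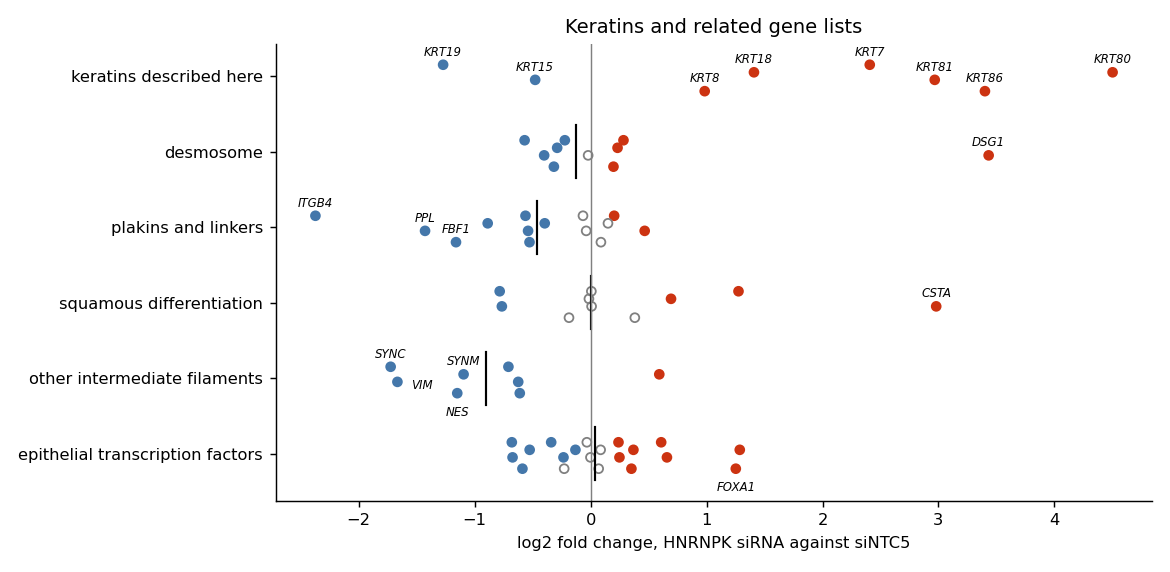
Log2 fold change of siHNRNPK against siNTC5 (x axis) for each tested gene of the keratins described here and of 5 related lists. Filled points passed the adjusted p threshold of 0.05 (red higher, blue lower), open points did not, and black lines mark each related list's median. KRT80, KRT81, KRT86, DSG1 and SYNC are plotted by the same rule but given with no test. KRT80 is at 4.50, and the other intermediate filaments have their median at -0.90.

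Markers of cell types were compared in the same libraries. Of the 7 colon epithelium markers tested, 4 were higher and 2 lower, with a median of 0.21, beside 35.5% and 36.1% over all genes. With Scramble among the controls 3 were higher and 0 lower, and the median turned to -0.30. Over all 13460 genes of that fit, 3337 were higher and 3628 lower, with a median of -0.02. The sum of the 16 was 533 to 608 CPM in siNTC5 and 727 to 806 CPM in siHNRNPK. The fibroblast sum was 44.6 to 73.3 against 75.4 to 122 CPM, nearly all of it COL1A1, with 1 of 2 tested genes higher, with DCN at 0 in siNTC5 and LUM at 0 in all 8 libraries. The immune sum was 17.6 to 24.2 against 21.8 to 27.4 CPM, which overlap, nearly all of it CD68, the 1 gene tested, which did not pass (log2 fold change 0.14). CD3E was at 0. The endothelial sum was 0.821 to 1.33 against 1.93 to 3.69 CPM, and in it VWF differed by 1.49 ± 0.32 on the log2 scale. VWF is given with no test, because 1 siNTC5 library reached the filter's level beside 4 in siHNRNPK. The part of these differences in the keratin values was not tested.

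The chromatin lists placed 8 of the 10 keratins outside every domain in both conditions. A gene was assigned to a domain where at least 50% of its body was covered. Of all 55 keratins, 12 were in an H3K27me3 domain and 18 in an H3K9me3 domain in control cells. After HNRNPK siRNA these counts were 11 and 21. The share over all genes was not computed. Coordinates are GRCh38. These lists have no replicates and carry the authors' scores, so differences between them have no error. KRT80 (chr12:52168996-52192014) lay 348.0 kb from the nearest H3K27me3 domain in control cells and 358.0 kb after HNRNPK siRNA, and 2533 and 4963 kb from the nearest lamin B1 domain. Its nearest H3K9me3 domain was 1224 kb away in control cells and 253 kb away after HNRNPK siRNA. The whole lists changed too. H3K9me3 had 895 domains over 657.2 Mb in control cells and 1996 over 794.4 Mb after HNRNPK siRNA, and lamin B1 had 922.9 and 684.5 Mb. Distances for genes other than keratins were not computed, so these shifts are not shown to be particular to KRT80. No lamin B1 domain reached either keratin cluster.

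Across the chromosome 12 cluster, 783.9 kb from KRT80 to KRT18 with 27 keratins, the domains lay in the middle and reached neither end. H3K27me3 covered chr12:52540001-52855000 in control cells (40.2% of the cluster, 12 keratins from KRT71 to KRT78) and chr12:52550001-52850000 after HNRNPK siRNA (38.3%). KRT8 lay 42.2 kb from that domain in control cells and 47.2 kb from it after HNRNPK siRNA. H3K9me2 covered chr12:52685001-52805000 in control cells, over KRT77, KRT76 and KRT3. H3K9me3 had no domain in the cluster in control cells and 1 of 75 kb after HNRNPK siRNA, chr12:52445001-52520000, over KRT6B, KRT6C, KRT6A and KRT5. Its deposited score, 0.826, was at percentile 61.9 of that list. None of the keratins in these chromosome 12 domains passed the filter on low RNA counts. Neither did KRT83, KRT85, KRT84, KRT82 and KRT75, which lay outside every domain in both conditions.

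In the chromosome 17 cluster, 969.9 kb with 28 keratins, 1 H3K9me3 domain of 780 kb, chr17:40705001-41485000, covered 80.4% in control cells and 18 keratins, KRT20 and KRT23 among them. After HNRNPK siRNA it was listed as 2 domains, chr17:40705001-40810000 and chr17:40835001-41485000, which covered 77.8%. The gap of 25 kb held KRT10, covered over 100% of its body in control cells and 0% after HNRNPK siRNA, together with its promoter window printed above. KRT20 and KRT23 stayed covered over 100% in both lists. KRT15 and KRT19 lay outside, 28.7 and 38.6 kb from its edge in both lists. KRT10 and KRT32, detected in siNTC5, and KRT23, detected in Scramble controls, lay inside the control H3K9me3 domain, while 8 of the 10 keratins followed here lay outside. Whether domain state goes with the RNA differences was not tested.

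**Figure D5:**
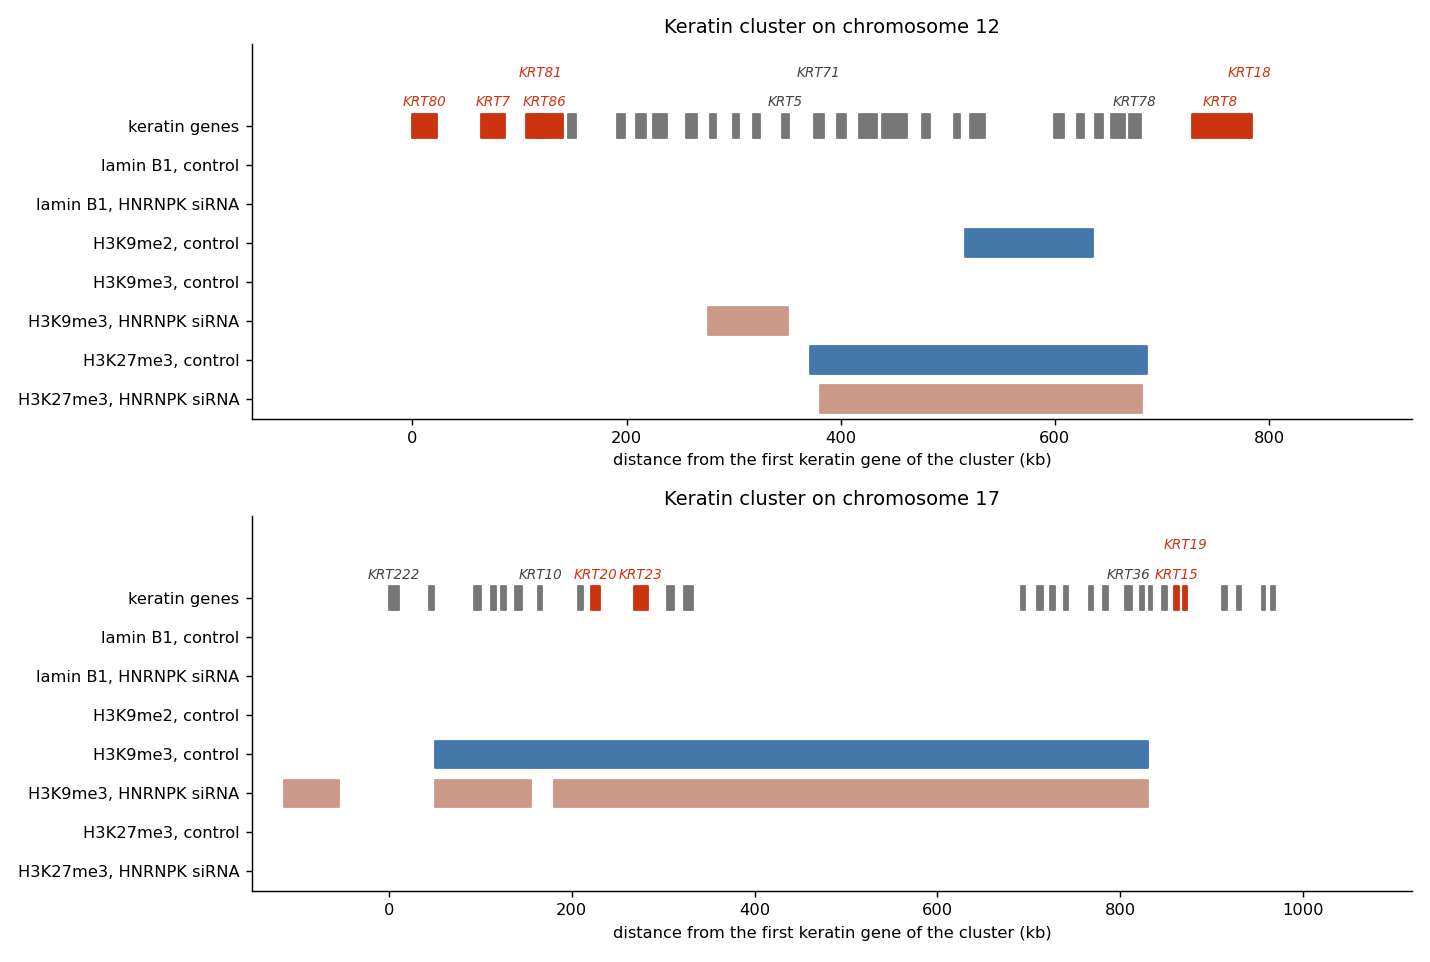
Keratin genes and listed domains in the clusters on chromosome 12 (top) and 17 (bottom), against the distance in kb from the first keratin gene (x axis), with the 10 keratins followed here in red, control domains in blue and HNRNPK siRNA domains in pink. H3K9me2 was listed in control cells alone. The H3K9me3 domain of 780 kb on chromosome 17 is split by a gap of 25 kb after HNRNPK siRNA.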

How the data were processed

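RNA was sequenced in 10 libraries and chromatin in ChIP libraries deposited as 7 domain lists. The authors deposited raw gene counts in whole numbers, and domains with a score per domain and the positions that give domain length. Per the submitters' processing notes, RNA processing used STAR 2.7.1a, featureCounts, Subread 2.0.6 and hg38, with DESeq2 and hg19 also named for Scramble, and ChIP processing used Bowtie2 2.5.1 and deepTools 3.1.3 with hg38. Annotation, strand, domain caller and pooling are not given in the sources used here.

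Groups follow the labels. Counts were filtered with filterByExpr, scaled by TMM and fitted in edgeR 4.0.16 (R 4.3.3) with kit and treatment as terms. Its quasi-likelihood test was used, adjusted by Benjamini-Hochberg over all tested genes at 0.05. Contrasts with Scramble used all 10 libraries on the 25527 shared names. Columns of per-sample values were all mapped. Same-numbered libraries correlated in their deviations from group means across genes (r = 0.100, 0.425, 0.336 and 0.265 for replicates 1 to 4). Same-numbered libraries also share a kit, so these values carry the kit difference. Within a kit r was 0.0582 or 0.00900, and libraries were not paired in the main fit. A replicate block was an alternative.

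Members and lists were chosen with earlier results of these data known. Genes named beyond the 10 are HNRNPK, tested keratins, tested genes within 250 kb of KRT80, the 5 genes most like it, and up to 4 genes per list that passed, differed by 1 or more on the log2 scale and had groups that do not overlap. SLC25A6, TAF15 and the markers beside the sums were named after their values were seen. Positions come from RefSeq. The steps were tested on simulated data.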

Additional observations from a re-analysis of the deposited data

Results flagged for a closer look

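KRT80 in siHNRNPK replicate 4 stood apart from its group. At 58.7 CPM it lay above the other 3 libraries, which were at 53.0 to 53.7 CPM. On log2 CPM scaled over the 8 libraries alone, its gap to the nearest of them was 0.923 of the group's range. That is above Dixon's 95% critical value for 4 libraries. Chance gives such a gap in about 1 in 20 groups, and 16 groups were looked at. Without that library the log2 fold change against siNTC5 was 4.43, beside 4.50 with it. Against Scramble it was 4.06, as with that library.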

How the results depend on the processing

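Against siNTC5, the 5 keratins tested, KRT8, KRT18, KRT19, KRT7 and KRT15, passed with the same direction under each of 20 alternatives. The replicate block, which pairs libraries by number, called 9872 genes and changed no keratin's call. With the absolute log2 fold change set to at least 1, 2195 genes passed. The kit term moved most. In the counts that follow, keratins include KRT80, whose values have no test: 239 genes and 2 keratins passed with no filter, 71 genes and 1 keratin by the Wald test of DESeq2, and 6 to 598 genes and 0 to 2 keratins with 1 library left out. In those fits the lone library of an arm is assumed to vary like the others. The cause was not tested. NR4A1 reversed in TruSeq libraries alone, at -0.28.

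With the keratin clusters widened by 250 kb on each side, the H3K27me3 share on chromosome 12 was 24.5% in control cells and 23.4% after HNRNPK siRNA, the H3K9me2 share was 9.35% and the H3K9me3 share after HNRNPK siRNA was 5.84%. On chromosome 17 the H3K9me3 shares were 53.1% and 55.5%, so their order turned, as the wider window takes in another domain after HNRNPK siRNA. The H3K9me2 share on chromosome 12 was 0% in the upper 50% of scores, and the H3K9me3 share after HNRNPK siRNA was 0% among domains of at least 100 kb. Merging across 50 kb closed the gap at KRT10. Leaving out names listed at 0 in every library of either set of tables was chosen after seeing the data and changed the call of none of the keratins it still tested. Levels per kb of coding length were not run, because no coding length was at hand. Depth limits KRT81 and KRT86, at 11 counts or fewer per siNTC5 library, and the read depth behind the domains is unknown.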
